A study of Mus musculus with 6 samples.

Results

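The genes of intraflagellar transport (IFT), the movement of protein trains along the shaft of a cilium, were examined in RNA of the developing mouse soft palate. The 33 members were taken by name from a table of 21938 genes and sorted by complex: 12 core and 6 peripheral subunits of IFT-B, 6 subunits of IFT-A, the IFT-A adaptor Tulp3, 4 kinesin-2 genes and 4 dynein-2 genes. All 33 were present and all had a mean of at least 1 CPM, reads of a gene scaled to an equal total in every library. The tissue was soft palate of embryos at E14.0, sequenced as 3 control libraries, numbered 1, 2 and 3, and 3 mutant ones, numbered 5, 6 and 7. The mutants were Osr2-Cre;b-cateninfl/fl, in which Cre driven by Osr2, a gene of palatal mesenchyme, deletes the floxed alleles of β-catenin. The controls carried the floxed alleles without Cre per the labels' protocol, while another label calls them wild type. Cells in which Osr2 is not active keep β-catenin, and the labels do not say how many embryos a library holds, so p-values cover only the spread among these samples, which may be technical.

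A cilium is built and maintained by IFT. Kinesin-2 motors carry trains of IFT-B and IFT-A from the base to the tip, and dynein-2, itself carried out as cargo, brings them back. IFT-B is known mainly for outward transport and for tubulin delivery, and IFT-A for return transport and, with TULP3, for bringing membrane receptors into the cilium. Primary cilia of palatal mesenchyme use this machinery for Hedgehog signalling, and the multiciliated cells of the nasal epithelium use it to build motile cilia. The title of the series names ciliary homeostasis in soft palate development under Wnt signalling, and the comparison asks whether transcripts of the transport machinery differed between mutant and control.

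The libraries held 10018182 to 15088697 counted reads, as estimated from the step between low values, so that a gene without a read could lie at up to 0.199 to 0.299 CPM (3 reads, counting error only). Ctnnb1, the targeted gene, had 718 ± 59.0 CPM in the control libraries and 600 ± 29.1 in those of the mutants (SD, n = 3 each; log2 change -0.26, adjusted p = 0.183 in limma). Osr2 fell from 46.9 ± 11.2 to 16.1 ± 3.22 CPM (adjusted p = 0.0285 in limma). The 11 genes listed as markers of palatal mesenchyme summed to 3197 to 4664 CPM in controls and 3009 to 4510 CPM in mutants, with none at 0 in any library.

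Most IFT genes measured somewhat more in the mutant, and 1 of the 33 passed the test. Wdr60, an intermediate chain of dynein-2, rose 1.63-fold (adjusted p = 0.0462 in limma over all genes), where 0.196% of all genes were called higher and 0.479% in either direction. None was called lower. The fold changes of the other members lay between 0.789 for Ttc30a1 and 1.56 for Ttc30b. The log2 change was above 0 for 30 of the 33 members (90.9%), against 56.1% of all genes and 46.2% of 10009 protein-coding genes with a mean of 10 CPM or more. The median log2 change was 0.25 over the members, 0.04 over all genes and -0.02 over those coding genes. In limma, 13 members (39.4%) were higher with an unadjusted p under 0.05 and 0 lower, where 13.4% of all genes were higher and 8.07% lower. In a bulk tissue a higher share of cells that make a transcript and more transcript per cell cannot be told apart.

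**Figure D1:**
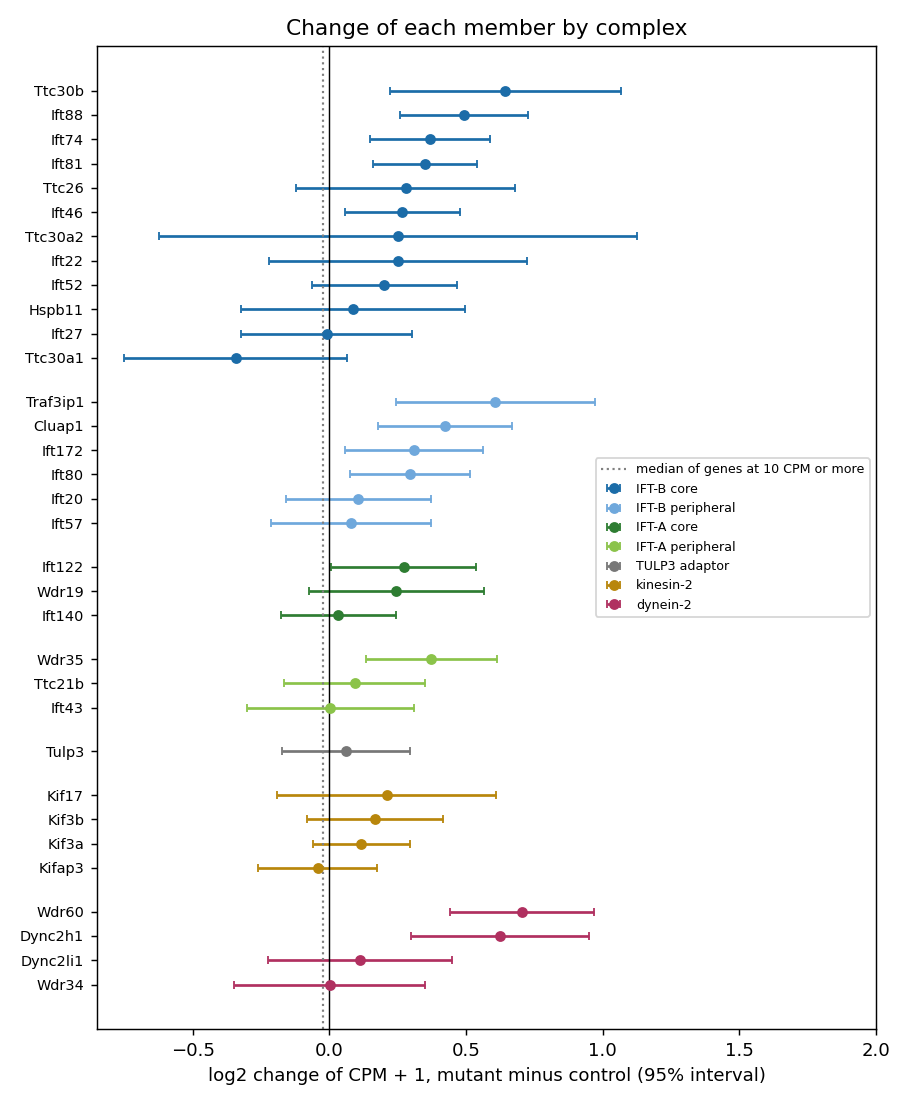
Log2 change of CPM + 1 (mutant minus control) of each of the 33 members, with its 95% interval from limma, grouped and coloured by complex. The dotted line is the median of genes at 10 CPM or more. Wdr60 and Dync2h1 stand at 0.70 and 0.62 above the other dynein-2 genes, and most IFT-B points lie right of 0.

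By complex, dynein-2 had the highest median log2 change (0.37, 4 genes), followed by peripheral IFT-B (0.30, 6 genes) and core IFT-B (0.26, 12 genes). The medians of IFT-A (0.17, 6 genes) and kinesin-2 (0.14, 4 genes) were lower, and their order turned in 4 of the 6 refits without 1 library. Without mutant replicate 7 the kinesin-2 median was 0.090. Subunits are not replicates, so the differences between complexes were not tested. Groups that do not overlap, with every mutant library above every control library, were found for 5 core IFT-B, 4 peripheral IFT-B, 2 IFT-A, 2 kinesin-2 and 2 dynein-2 genes. Together that is 15 of 33 members (45.5%), where 17.1% of all genes and 13.6% of the coding genes at 10 CPM or more did the same. Ttc30a1 was the 1 member with every mutant library lower (10.8% of all genes). At an adjusted p below 0.1 in limma, 7 members were higher (Wdr60, Ift88, Dync2h1, Ift81, Cluap1, Ift74 and Traf3ip1), where 2.84% of all genes were.

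Of the 4 dynein-2 genes, Wdr60 passed the test, Dync2h1 came close to it, and the groups of the other two overlapped. Wdr60 (116206262 to 116263022 on chromosome 12 of GRCm38) gave 48.0, 48.9 and 47.4 CPM in control, against 68.7, 77.6 and 92.5 CPM in mutant. The control libraries lay within 2 CPM of each other and all mutants lay above them. Its group means were 48.1 ± 0.75 and 79.6 ± 12.03 CPM (SD, n = 3 each). On the log2 scale the difference was 0.70 ± 0.12 (SE), and the 95% interval of the fold ran from 1.36 to 1.95. The call rests on the setting: the adjusted p in limma ranged from 0.0380 to 0.166 over 14 alternatives and was above 0.05 in 10 of them. The log2 change stayed between 0.59 and 0.80.

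Dync2h1 (chromosome 9, 6928503 to 7184446), the heavy chain that holds the motor domain, measured 135.6, 126.2 and 92.9 CPM in control, against 177.1, 167.3 and 198.5 CPM in mutant. The groups did not overlap, and control replicate 3 was the lowest library. The log2 difference was 0.62 ± 0.14 (SE; adjusted p = 0.0773 in limma), and without control replicate 3 it was 0.46. Dync2li1, the light intermediate chain, measured 14.3, 14.1 and 12.2 CPM in control and 13.9, 13.1 and 17.4 CPM in mutant. Wdr34, the intermediate chain that pairs with Wdr60, measured 12.2, 15.3 and 10.7 CPM in control and 12.7, 13.0 and 12.1 CPM in mutant. The groups of both genes overlapped, and the intervals of their folds, 0.857 to 1.365 and 0.785 to 1.28, lay below the fold of Wdr60. The interval of Wdr60 itself began at 1.358 and so overlapped that of Dync2li1. The interval of Dync2h1, 1.23 to 1.93, overlapped those of both genes. Differences between these subunits were not tested.

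The ratio of 2 subunits within a library does not depend on how libraries are scaled, but it can follow trends in length and GC content. The ratio of Wdr60 to Wdr34 was 3.95, 3.20 and 4.41 in control, against 5.40, 5.97 and 7.63 in the mutants, with no overlap. The ratio of Dync2h1 to Dync2li1 was 9.47, 8.96 and 7.60 in control, against 12.7, 12.8 and 11.4 in the mutants, again with no overlap. The ratio of Wdr60 to Dync2h1 was 0.417 ± 0.082 in control and 0.439 ± 0.045 in mutant (SD, n = 3 each) and overlapped. These pairs were chosen after their values were seen and were given no test. With each library corrected for its trend in length and GC content, the log2 change was 0.64 for Wdr60 and 0.16 for Wdr34. By the same correction it was 0.45 for Dync2h1 and 0.099 for Dync2li1. Both intermediate chains sit in the same motor complex. These ratios describe transcripts, not proteins, and whether the subunits changed unequally was not tested.

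**Figure D2:**
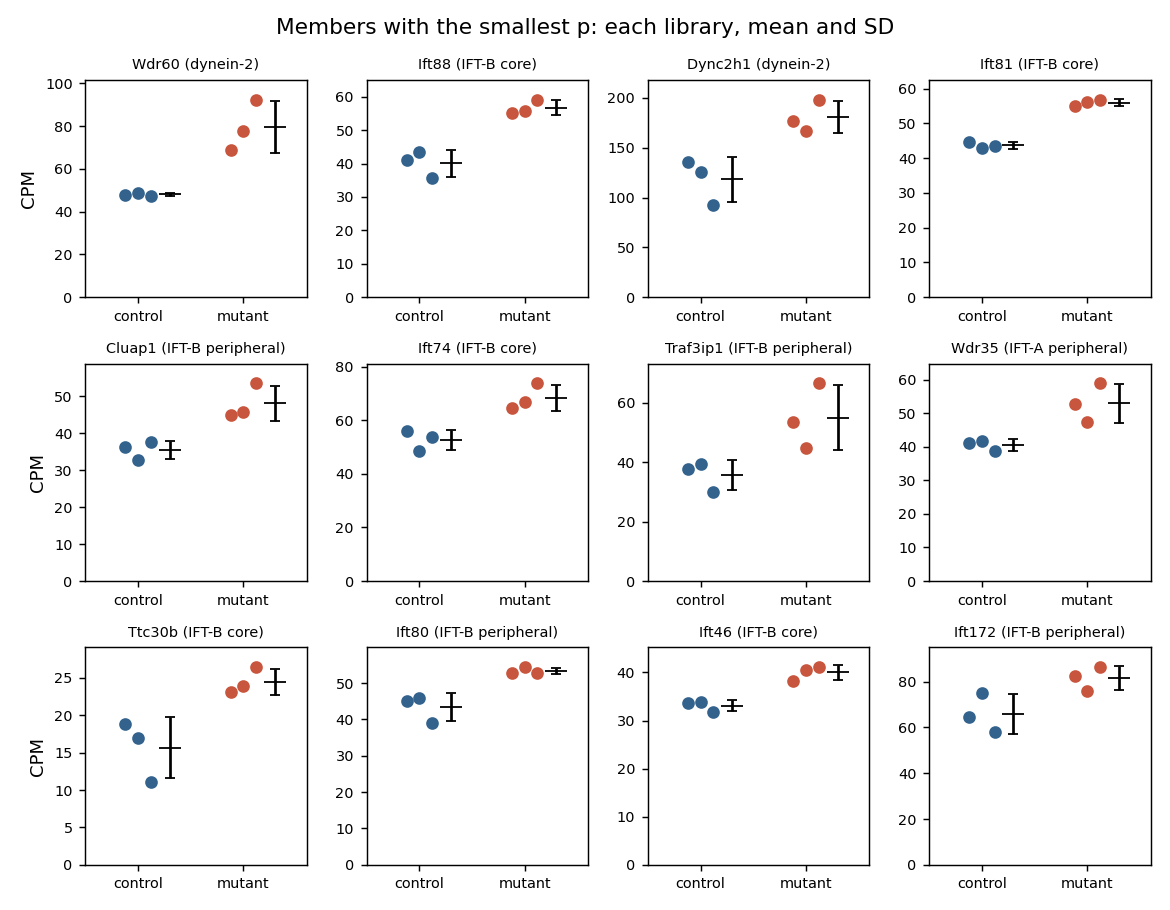
CPM in each library (points) with mean and SD (black) for the 12 members with the smallest p; every axis starts at 0. In all 12 the 3 mutant libraries lie above the 3 control libraries, and the gap is widest relative to the controls in Wdr60.

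Core IFT-B, the stable heart of the train, held the member with the second smallest p. Ift88 (chromosome 14, 57424062 to 57517936), the TPR protein whose loss abolishes cilia in mice, measured 41.2, 43.5 and 35.6 CPM in control, against 55.0, 55.9 and 59.2 CPM in mutant. All mutants lay above all controls. The log2 difference was 0.49 ± 0.10 (SE). Its adjusted p in limma was 0.0686 and ranged from 0.0480 to 0.267 over 14 alternatives. Only the refit without control replicate 2 brought it below 0.05. Ift81 and Ift74 form the pair that binds tubulin. Ift81 measured 44.7, 42.8 and 43.4 CPM in control and 54.9, 56.0 and 56.9 CPM in mutant (adjusted p = 0.0809 in limma). Ift74 measured 55.9, 48.6 and 53.7 CPM in control and 64.7, 66.7 and 73.8 CPM in mutant (adjusted p = 0.0996 in limma). Their ratio stayed at 0.829 ± 0.045 in control and 0.820 ± 0.043 in mutant, so the partners differed by nearly the same factor. Ift46 measured 33.6, 33.8 and 31.8 CPM in control and 38.3, 40.6 and 41.1 CPM in mutant, also without overlap (adjusted p = 0.154 in limma).

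Besides the Ttc30 copies, described next, the other core subunits had groups that overlapped. Ift52, which joins the subcomplexes of the core, measured 23.9 ± 0.74 and 27.7 ± 3.21 CPM (SD, n = 3 each; fold interval 0.957 to 1.38). Ttc26 (IFT56) measured 18.5 ± 4.25 and 22.4 ± 2.66 CPM, and the small GTPase Ift22 18.05 ± 4.84 and 21.4 ± 3.79 CPM. Ift27 and Hspb11 (IFT25) form a pair needed for Hedgehog signalling rather than for building the cilium. Ift27, the GTPase of that pair, measured 14.1 ± 1.53 and 14.03 ± 1.17 CPM and Hspb11 6.65 ± 1.16 and 7.09 ± 0.89 CPM. The fold intervals of this pair were 0.800 to 1.23 and 0.800 to 1.41.

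A run of 3 neighbouring genes on chromosome 2, between 75935849 and 75981967, encodes IFT70, the TPR subunit of the core, in near-identical copies. Their coding sequences in GENCODE are 1995 bases each. Ttc30a1 and Ttc30a2 share 95.1% of these bases, Ttc30a1 and Ttc30b 94.8%, and the longest identical stretch is 460 bases, so reads can match several copies. The start of each coding sequence (bases 1 to 60, GENCODE vM21, GRCm38, minus strand) is shown because the copies are separated by such scattered bases, with capitals where the 3 are not all alike.
Ttc30a1: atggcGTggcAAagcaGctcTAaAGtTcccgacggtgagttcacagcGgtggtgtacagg
Ttc30a2: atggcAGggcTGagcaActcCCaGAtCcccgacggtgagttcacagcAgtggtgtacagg
Ttc30b: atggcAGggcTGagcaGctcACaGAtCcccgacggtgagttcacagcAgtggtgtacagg

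Ttc30b measured 18.9, 17.0 and 11.1 CPM in control, against 23.1, 23.9 and 26.4 CPM in mutant (log2 change 0.64 ± 0.19 SE, adjusted p = 0.113 in limma; 0.43 without control replicate 3). Ttc30a1 went the other way, with 13.3, 10.7 and 10.2 CPM in control, against 6.95, 9.75 and 9.78 CPM in mutant (log2 change -0.34 ± 0.18 SE, adjusted p = 0.308 in limma; -0.20 without mutant replicate 5). Neither pair of groups overlapped. Ttc30a2 measured 2.10 and 1.25 CPM in control replicates 2 and 3, and 1.56, 1.502 and 0.835 CPM in mutant. In control replicate 1 its value was 1.79e-05 CPM, far below the 0.0800 CPM that 1 read is worth there, so that value is not a whole read. The values of the single copies are uncertain. Summed over the 3 copies, the libraries measured 32.2, 29.8 and 22.5 CPM in control and 31.6, 35.2 and 37.0 CPM in mutant, and the groups overlapped.

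Peripheral IFT-B links the core to kinesin-2. Traf3ip1 (IFT54; chromosome 1, 91494647 to 91529307), which binds microtubules and pairs with IFT20, measured 37.5, 39.2 and 29.8 CPM in control, against 53.6, 44.8 and 66.5 CPM in mutant. The log2 difference was 0.61 ± 0.16 (SE; adjusted p = 0.0997 in limma), with a wide spread among mutants. Cluap1 (IFT38), the partner of IFT57, measured 36.4, 32.8 and 37.5 CPM in control and 45.0, 45.8 and 53.5 CPM in mutant (adjusted p = 0.0915 in limma). Of its annotated exonic bases, 22.4% also belong to another gene model on the same strand and 16.1% to 1 on the opposite strand. The labels do not say whether strand was used in counting, so its values are less certain. Ift172, the largest IFT-B subunit, measured 64.5, 75.1 and 58.0 CPM in control and 82.3, 76.1 and 86.3 CPM in mutant (adjusted p = 0.166 in limma). Ift80 measured 45.0, 46.0 and 39.1 CPM in control and 52.8, 54.4 and 52.7 CPM in mutant (adjusted p = 0.141 in limma). None of these 4 genes had overlapping groups, while Ift20 (39.0 ± 4.10 and 42.0 ± 4.07 CPM), which also works at the Golgi, and Ift57 (26.2 ± 3.15 and 27.8 ± 3.02 CPM) did.

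In IFT-A, 2 of 6 genes had a limma p under 0.05 before adjustment, both higher. Wdr35 (IFT121; chromosome 12, 8973892 to 9028847) measured 41.3, 41.7 and 38.6 CPM in control, against 52.6, 47.4 and 58.9 CPM in mutant, which is 0.37 ± 0.11 (SE) on the log2 scale (adjusted p = 0.109 in limma). Ift122, a core subunit, measured 29.9, 36.5 and 28.3 CPM in control and 39.2, 37.1 and 38.1 CPM in mutant (log2 change 0.27 ± 0.12 SE, adjusted p = 0.222 in limma). In both, each mutant library lay above each control. The groups of the other IFT-A members overlapped: Wdr19 (IFT144) measured 22.5 ± 3.63 and 26.7 ± 2.19 CPM, and Ttc21b (IFT139) 27.6 ± 1.898 and 29.6 ± 2.75 CPM. Ift140, the third core subunit, measured 45.4 ± 2.13 and 46.5 ± 2.51 CPM, with a fold interval of 0.884 to 1.18, and Ift43 14.9 ± 1.70 and 15.0 ± 1.12 CPM, with one of 0.811 to 1.24. Tulp3, the adaptor that carries receptors such as Gpr161 with IFT-A, measured 54.4 ± 6.37 and 56.6 ± 1.13 CPM (fold interval 0.886 to 1.23). The fold intervals of all 6 IFT-A genes and of Tulp3 lay below 1.63, the fold of Wdr60. The interval of Wdr60 itself began at 1.36.

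Of the 4 members listed for kinesin-2, the outward motor, 0 had a limma p under 0.05 before adjustment. Kifap3, the non-motor subunit that links the motor to cargo, measured 113.2, 105.8 and 118.1 CPM in control, against 119.7, 108.3 and 99.9 CPM in mutant (fold interval 0.836 to 1.13). Kif3a measured 88.9, 85.3 and 86.7 CPM in control and 95.6, 91.7 and 96.1 CPM in mutant. Its groups did not overlap, yet the fold was 1.08 with an interval of 0.959 to 1.23. Kif3b, the partner of Kif3a, measured 49.8 ± 2.83 and 56.3 ± 6.84 CPM, and the groups overlapped. Kif17, the homodimeric kinesin-2, measured 2.08, 1.80 and 2.02 CPM in control and 2.28, 2.43 and 2.58 CPM in mutant (adjusted p = 0.525 in limma). The ratio of Kif3a to Kifap3 was 0.775 ± 0.038 in control and 0.869 ± 0.084 in mutant and overlapped. At the size of their intervals, a rise of 1.5-fold was outside the range for Kif3a, Kif3b and Kifap3.

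Levels between genes can be set side by side only per length, here as CPM per kilobase of annotated exon. In the controls Kifap3 (28.0 ± 1.55), Ift20 (25.6 ± 2.69), Kif3a (24.3 ± 0.51), Ift74 (19.9 ± 1.41) and Cluap1 (15.6 ± 1.07) had the highest levels (CPM per kb, SD, n = 3). The control libraries of Ift20 overlapped with those of Kifap3 above it and of Kif3a below it, while Kifap3 lay above Kif3a in each of them. Most other subunits lay between 3 and 10 CPM per kb, with the dynein-2 genes between 5.39 for Wdr34 and 7.24 for Dync2li1. Wdr19 was lower at 1.99 ± 0.32, and Ttc30a2 (0.459) and Kif17 (0.429 ± 0.033) stood at the bottom. In the mutants Wdr60 stood at 9.82 and Dync2h1 at 11.1, above Dync2li1 at 7.91 and Wdr34 at 5.35. Exons of rare isoforms add to the length, so a gene such as Ift80, with 12428 annotated exonic bases, may be set too low.

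**Figure D3:**
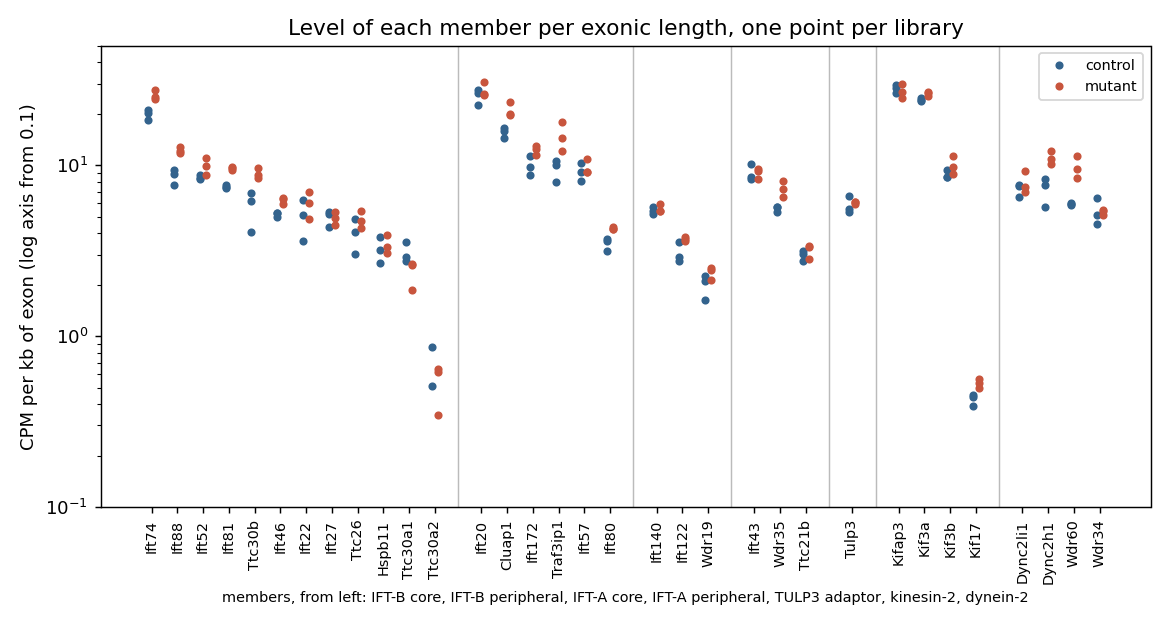
Level of each member in CPM per kb of annotated exon (log axis), one point per library, controls in blue and mutants in red, with vertical lines between complexes. Kif17 and Ttc30a2 lie lowest, and the control point of Ttc30a2 at 1.79e-05 CPM falls below the axis.

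The difference between groups was carried by all mutant libraries, but in unequal measure. Control replicate 3 had the lowest control value for 19 of the 33 members, and mutant replicate 7 the highest mutant value for 22. The median log2 difference of the members from the control mean was 0.03, 0.05 and -0.06 in control replicates 1, 2 and 3, and 0.16, 0.21 and 0.28 in mutant replicates 5, 6 and 7. Genes at 10 CPM or more had medians between -0.04 and 0.01 in the same libraries. Without control replicate 3 the median log2 change of the members was 0.16, against 0.25 with it. Control replicate 3 and mutant replicate 7 are also the libraries with high Xist, a transcript of females (1188 and 2054 CPM, against 13.1 to 17.3 CPM in the others). High Xist was balanced between the groups, so sex as a covariate could not move any log2 change, and the members' median stayed at 0.25. With that covariate Wdr60 had an adjusted p of 0.0622 in limma.

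**Figure D4:**
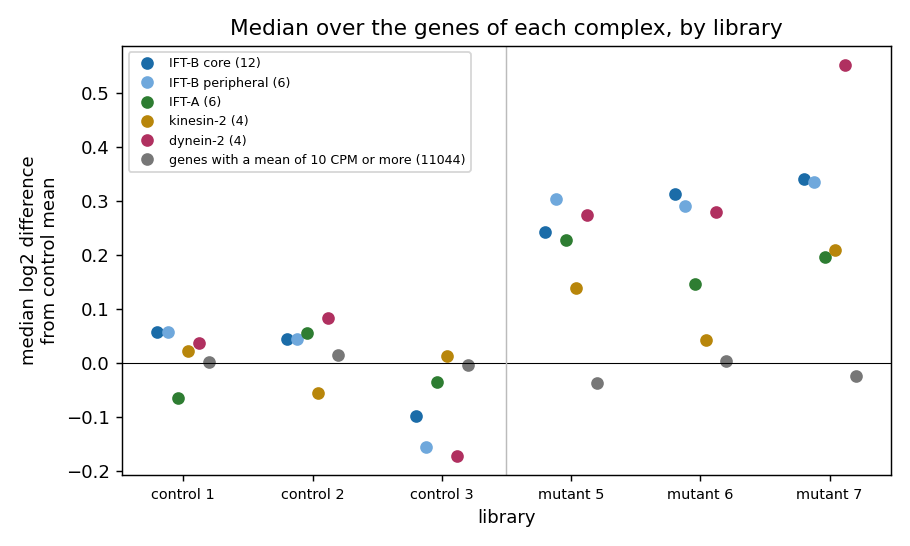
Median over the genes of each complex of the log2 difference from the control mean, by library (number of genes in brackets), with genes at 10 CPM or more in grey. All 5 complexes lie above their control values in each mutant library, and control replicate 3 is lowest for IFT-B and dynein-2.

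Markers of several cell types also differed between the groups, some in the direction of the members and some in the other. The 25 measured genes listed as motile cilium and multiciliated cell markers summed to 513.7, 604.7 and 291.2 CPM in control replicates 1, 2 and 3, and to 829.9, 712.2 and 932.6 CPM in mutant replicates 5, 6 and 7. The sums did not overlap, and the lowest and highest libraries were those that stood lowest and highest for the IFT members. Mutant replicates 5 and 6 stood in the opposite order for the members (median log2 difference 0.16 and 0.21). No marker was at 0. All 25 had a log2 change above 0, with a median of 1.00, and in limma 19 (76.0%) had a p under 0.05 before adjustment. None of the 25 had an adjusted p below 0.05. Skeletal muscle markers (16 genes) summed to 2767 to 5867 CPM in controls and 1565 to 2161 CPM in mutants. All 16 had a log2 change below 0 (median -1.16). In limma 8 of them were called lower at an adjusted p below 0.05, where 0.479% of all genes were called in either direction. Blood and macrophage markers (9 genes) summed to 548.3 to 1426 CPM and 248.3 to 392.1 CPM, and cartilage and bone markers (9 genes) to 355.3 to 709.5 CPM and 762.8 to 1151 CPM. Taken singly, all 9 cartilage and bone genes had groups that overlapped, and 1 of 9 (Ibsp, 100.6 and 364.2 CPM on average) had a p under 0.05 before adjustment. Sums of epithelial, neural, endothelial and palatal mesenchyme markers overlapped between the groups, though single markers leaned 1 way. The log2 change was above 0 for 8 of 9 epithelial genes (median 0.24), below 0 for 8 of 9 neural genes (median -0.60), and below 0 for 10 of 11 mesenchyme genes (median -0.16), whose sum is mostly Col1a1 (2902 and 2851 CPM). The part of these in the IFT values was not tested.

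Length and base composition also moved with the change. Among 10009 coding genes with a mean of 10 CPM or more, split into 4 equal bins, the median log2 change went from -0.12 in the bin with the shortest exonic length to 0.08 in that with the longest. It went from 0.07 in the bin with the lowest GC content to -0.14 in that with the highest. The median of the members at 10 CPM or more was above that of the bin in each of the 4 bins of length. It was 0.11, 0.25, 0.31 and 0.26, over 10, 7, 5 and 8 members. The same held in each of the 4 bins of GC content (0.32, 0.16, 0.27 and 0.00, over 8, 12, 7 and 3 members). The members' median exonic length was 4012 bases and their median GC content 47.5%, against 5220 bases and 49.1% in the coding genes. Across the 33 members the log2 change had a Pearson r of 0.28 with log2 length and -0.16 with GC content, as a description over genes that share the same 6 libraries. With each library corrected for its trend in length and GC content, the members' median log2 change was 0.19. Wdr60 then stood at 0.64 (adjusted p = 0.0803 in limma), Dync2h1 at 0.45 and Ift88 at 0.39, while Ift80 moved from 0.29 to 0.10.

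**Figure D5:**
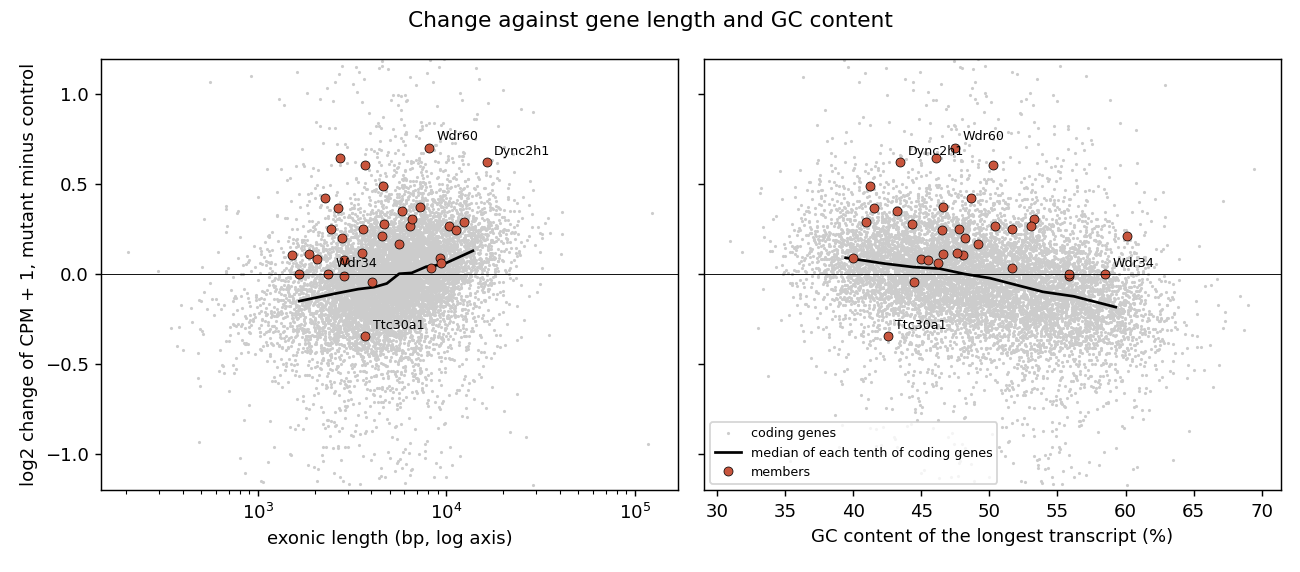
Log2 change of CPM + 1 against exonic length (left, log axis) and GC content of the longest transcript (right) for coding genes at 10 CPM or more (grey; changes beyond 1.2 in size lie outside the axis) and the 33 members (red). The black line, the median of coding genes in 10 equal bins, rises with length and falls with GC content, and most members lie above it.

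Lists of related genes gave medians on both sides of 0. Of 14 genes of cytoplasmic dynein-1 and dynactin, the cargo motor of the cell body, 3 had a log2 change above 0 (median -0.10) with 0 higher and 2 lower (Dync1i1 and Actr1a) at a limma p under 0.05 before adjustment. The 7 kinesin-1 genes had a median of -0.19. The BBSome, which rides on IFT trains, had 8 of 10 genes above 0 with a median of 0.16, and Bbs5 measured 7.53 ± 1.14 and 11.2 ± 0.84 CPM (SD, n = 3 each; adjusted p = 0.123 in limma). Of 10 dynein light chain genes (median 0.18), 2 were higher (Dynlt1c and Dynlrb2) and 1 lower (Dynlrb1) by the same limit. Dynlrb2, a light chain of ciliated tissues, measured 8.07 ± 4.65 and 15.8 ± 0.60 CPM and its close relative Dynlrb1 37.6 ± 4.30 and 30.4 ± 1.44 CPM. The list of IFT regulators and small GTPases, which also holds kinesins and other cilium genes, had 16 measured genes. Of these, 3 were higher at that limit, the kinases Mok and Mak and the kinesin Kif27. Mok measured 5.74 ± 0.85 and 10.7 ± 1.096 CPM (adjusted p = 0.0685 in limma). Mak measured 6.19 ± 2.71 and 12.7 ± 2.03 CPM, and Kif27 14.04 ± 4.39 and 28.3 ± 4.60 CPM. The list's median was -0.05. With length and GC content corrected, the median was 0.10 for the light chains and -0.10 for dynein-1 and dynactin. It was -0.06 for kinesin-1 and 0.045 for the BBSome. For the regulators and small GTPases it was 0.09 over 15 genes, against -0.05 over 16 without the correction. Their median thus turned direction, but not over the same genes. None of the genes of these 5 lists passed over all genes.

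The authors' deposited filtered list of 2432 genes (11.1% of the table) held 4 of the 33 members (12.1%): Wdr60, Dync2h1, Ttc30b and Traf3ip1. All 4 were higher in the mutant, and 8.25% of the table's genes were both on the list and higher. Every listed gene differs by at least 1.5-fold between group means, and these 4 are the members beyond that fold. Of coding genes at 10 CPM or more, 4.78% were on the list.

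Promoters of the members were searched for the X-box, the site of RFX factors, which drive many cilium genes. The pattern was GTNNCC, 0 to 3 bases and GGNNAC, which reads alike on both strands, in 250 bases before to 50 after the RefSeq start (GRCm38.p6). Of 28 members with a promoter sequence, 5 held it (17.9%), against 4.38% of 27025 genes taken at any level of expression. Among genes with a mean of 10 CPM or more, 479 held it and 7683 did not. The sites of the members are printed with 10 bases on each side and the match in capitals, because the 5 genes are compared with the other members by this feature.
Ttc30a2 (chr2:75978180-75978213, minus strand): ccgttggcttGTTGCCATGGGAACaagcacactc
Wdr19 (chr5:65199652-65199685, plus strand): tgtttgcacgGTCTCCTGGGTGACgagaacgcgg
Ift22 (chr5:136908077-136908140, plus strand): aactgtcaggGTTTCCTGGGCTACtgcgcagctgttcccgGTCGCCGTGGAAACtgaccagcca
Ttc26 (chr6:38381481-38381514, plus strand): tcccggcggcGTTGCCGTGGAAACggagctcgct
Ift57 (chr16:49699197-49699256, plus strand): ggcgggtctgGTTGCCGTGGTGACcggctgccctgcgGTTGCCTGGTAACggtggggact

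The log2 changes of these 5 genes ranged from 0.08 to 0.28 with a median of 0.25, and 0 of them had a limma p under 0.05 before adjustment. Of the 23 members whose window did not hold the pattern, 9 did, with a median log2 change of 0.17. Ift81, Ttc30b, Ift80, Ift122 and Dync2li1 had no promoter sequence and are left out here. All of them but Dync2li1 were higher by that limit. Over genes at 10 CPM or more with a promoter sequence, 72 of 479 with the pattern (15.0%) and 780 of 7683 without it (10.2%) were higher by that limit, with medians of 0.019 and -0.025. The pattern ATCAAAG of TCF and LEF factors, the DNA-binding partners of β-catenin, was found on either strand in 1 of the 28 members (Ift57; 3.57%) and in 4.29% of all genes. The promoter of Wdr60, the 1 member called, held neither pattern and is shown for that reason (chr12:116262976-116263275, minus strand, all in lower case since nothing matched).
Wdr60: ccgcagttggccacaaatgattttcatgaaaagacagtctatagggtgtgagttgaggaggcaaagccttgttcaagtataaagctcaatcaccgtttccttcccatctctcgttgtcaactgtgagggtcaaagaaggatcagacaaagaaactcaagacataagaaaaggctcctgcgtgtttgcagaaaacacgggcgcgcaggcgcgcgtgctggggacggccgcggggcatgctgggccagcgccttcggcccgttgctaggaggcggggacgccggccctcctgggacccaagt
A match or its lack describes these letters only.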

How the data were processed

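Soft palate RNA of 3 control and 3 mutant mouse embryonic samples was sequenced. The authors used STAR and the mm10 build, per the submitters' processing notes. Versions, counting and gene models were not given in the sources used here. The deposited values are CPM plus 1e-04, which was removed (unit and constant read from the values). Samples are rows matched by title, and 0 columns of per-sample values were left unused. Between 63.5 and 68.1% of low values (up to 20 reads) were whole reads within 0.02 of a read, so no count model was used; voom weights on estimated reads were an alternative.

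Values were taken as log2(CPM + 1) and compared with limma 3.58.1 in R 4.3.3 (intensity trend, Benjamini-Hochberg over all 21938 genes, no filter, threshold 0.05). Log2 changes on this scale understate those of low genes. Positions, exonic lengths and GC content came from GENCODE vM21 on GRCm38 by symbol (97.6% matched) and promoters from RefSeq. The test was checked on simulated libraries. Their noise beyond counting error was independent and of equal relative size in all genes, so it does not give the power here. The members, lists and alternatives were chosen with earlier results of these data known. All 33 members are named; those told library by library are the 12 with the smallest p and the largest rise or fall of each complex, and others shown so were chosen after their values were seen. Of each related list, up to 4 genes with the smallest p could be named.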

Additional observations from a re-analysis of the deposited data

How the results depend on the processing

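Refits without trend, with robust fitting, with a filter at a mean of 1 CPM and with sex as a covariate leave log2 changes as they are. They could not turn a direction, while the other refits could. Of the 33 members, 22 kept their direction in all 14 refits and 11 changed it in at least 1. Outside the refits without 1 library these were Ift27 (-0.0091 as reported, 0.11 with length and GC corrected and 0.010 with libraries scaled by the median of ratios), Ttc21b (-0.093 corrected) and Tulp3 (-0.034 corrected). With 1 library left out the log2 change ranged from -0.023 to 0.20 for Hspb11, -0.095 to 0.048 for Ift27, -0.22 to 0.60 for Ttc30a2, -0.0048 to 0.16 for Ift57, -0.011 to 0.067 for Ift140, -0.048 to 0.090 for Ift43, -0.11 to 0.020 for Kifap3, -0.00090 to 0.19 for Dync2li1 and -0.10 to 0.13 for Wdr34.

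The count of members called was 1, and 0 with a pseudocount of 0.1, without trend, with sex as a covariate, with voom weights, and with length and GC corrected, where limma gave 11 to 13 members higher with p under 0.05 before adjustment. With the correction, Ttc30a1 was also lower by that limit. The count was 7 at an adjusted p below 0.1 and 0 to 2 with 1 library left out (10 to 13 before adjustment), the 2 being Wdr60 and Ift88 without control replicate 2. Over all genes the count was 105, and 30 with length and GC corrected, 174 with robust fitting and 999 at an adjusted p below 0.1. It was 0 without trend and with sex as a covariate (4516 and 4356 in limma with p under 0.05 before adjustment), and 0 to 452 with 1 library left out (2916 to 5002 before adjustment; 0 without control replicate 1 or 3 or mutant replicate 5 or 6, 2 without mutant replicate 7, 452 without control replicate 2). The members' median log2 change ranged from 0.16 without control replicate 3 to 0.28 without control replicate 2. The cause was not tested. No paired analysis was possible because the groups share no replicate numbers. Ttc30a2 and Kif17, near 1 to 2 CPM, rest on few reads.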
